A study of Mus musculus with 12 samples.

Results

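Cps1 encodes the mitochondrial carbamoyl phosphate synthetase that uses ammonia. It had the largest fall with oxaliplatin (Oxali) in Myc-CaP cells, and that value, Oxali against untreated cells, is how it came to be chosen. It is described here together with 9 genes picked by name because they work beside it: the pyrimidine synthesis genes Cad, Dhodh and Umps, and the urea cycle genes Otc, Ass1, Asl, Arg1, Arg2 and Nags. These 10 genes are among 55216 in the count table. The filter on low counts kept 7 of the 10 and 13177 genes in all; Otc, Nags and Arg2 did not pass.

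Myc-CaP is an established mouse prostate cancer cell line from a tumor driven by a human MYC transgene under a prostate promoter, labelled as male and of the FVB/NJ strain, so every group shares that one line. RNA-seq was done on 12 libraries in 6 groups of 2, all at 48 h: untreated cells (Ctrl), interferon γ (IFNγ) at 200 pg (IFN200) or 2000 pg (IFN2000), 2 μM Oxali, a platinum drug that crosslinks DNA, and Oxali with either IFNγ dose (Combo200, Combo2000). The labels give the IFNγ doses without a volume, and the study gives them per mL. Groups follow the sample titles. For the 6 single-treatment libraries the agent label names another treatment than the title (the title IFN200 goes with the agent Oxali, IFN2000 with IFNγ 200 pg, and Oxali with IFNγ 2000 pg), whereas the labels of Ctrl and of the combinations do not conflict. Grouped by title, IFN200 differed from Ctrl in 0.114% of genes, and Oxali differed from Ctrl in 67.6% and from Combo200 in 1.83% (edgeR adjusted p under 0.05). The labels do not say whether partner libraries came from separate cultures. The study speaks of biological replicates for its experiments in general and of duplicates for RNA-seq, so the p-values measure the spread between these libraries, which may in part be technical.

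Carbamoyl phosphate is made by separate enzymes for separate uses. In liver and intestine, CPS1 makes it from ammonia inside mitochondria, only when bound by the N-acetylglutamate that NAGS produces. In liver, OTC, ASS1, ASL and ARG1 carry its nitrogen on to urea. In nearly every dividing cell, CAD makes it from glutamine in the cytosol and runs the first pyrimidine steps, DHODH oxidizes the product at the inner mitochondrial membrane, and UMPS completes uridine monophosphate.

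Because Cps1 and Cad descend from related synthetases, their coding sequences were aligned to see how far their reads could be confused. Over 4230 aligned bases 62.3% were identical, and the longest stretch the genes shared was 23 bases. The 60-base window where they were most alike follows, in the coding strand of GENCODE transcripts on GRCm38, with the 7 differing bases in capitals. It covers coding bases 2134 to 2193 of the 4500 of Cps1 and 2038 to 2097 of the 6675 of Cad.
Cps1: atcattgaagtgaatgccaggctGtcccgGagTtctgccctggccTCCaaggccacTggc
Cad: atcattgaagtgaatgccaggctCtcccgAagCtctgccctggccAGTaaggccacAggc
Even here 53 of 60 bases matched and 7 did not. Cps1 lies at chr1:67123026-67231259 on the plus strand and Cad at chr5:31054780-31078479 on the plus strand (GRCm38). Neither overlaps an exon of another gene.

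The libraries held 18749975 to 25931516 counts, and 3 counts, the limit that a count of 0 allows, correspond to 0.111 to 0.167 CPM (read counts relative to the TMM-scaled library total). This limit covers counting error only. Among the prostate luminal markers, Hoxb13 and Krt8 passed the filter, while Epcam and Pbsn had no count in any library. IFN2000 replicate 2 held T cell markers, summing to 7.37 CPM against 0.446 in its partner, and IFN200 replicate 1 held heart muscle markers, 7.60 CPM against 1.15. Where leaving out both libraries changed a call of a member, the value without them is given. The hepatocyte markers Alb, Hpd and G6pc were at 0 in all 12 libraries, and the 12 hepatocyte markers summed to 2.45 and 2.69 CPM in Ctrl and to 1.93 and 2.34 in Oxali. The 8 enterocyte markers had at most 11 counts each, with Sis at 0 throughout. The 8 macrophage markers summed to at most 2.18 CPM, with Adgre1, Itgam and Cd163 at 0 throughout. Some markers went with the drug: Tnnt2 ranged from 15 to 47 counts over the libraries without Oxali and from 68 to 125 over those with it, and Csf1r was at 0 without it and ranged from 8 to 19 with it. The enterocyte markers summed to between 0.128 and 0.309 CPM without Oxali and to between 0.556 and 1.15 CPM with it, with Lct at 1 to 3 and then 5 to 11 counts and Fabp2 at 0 or 1 and then 3 to 10. Lck ranged from 3 to 36 and from 24 to 40 counts. Its 36 was in IFN2000 replicate 2, the library with T cell markers, and the next highest without Oxali was 13. The part of these markers in the results was not tested.

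**Figure D1:**
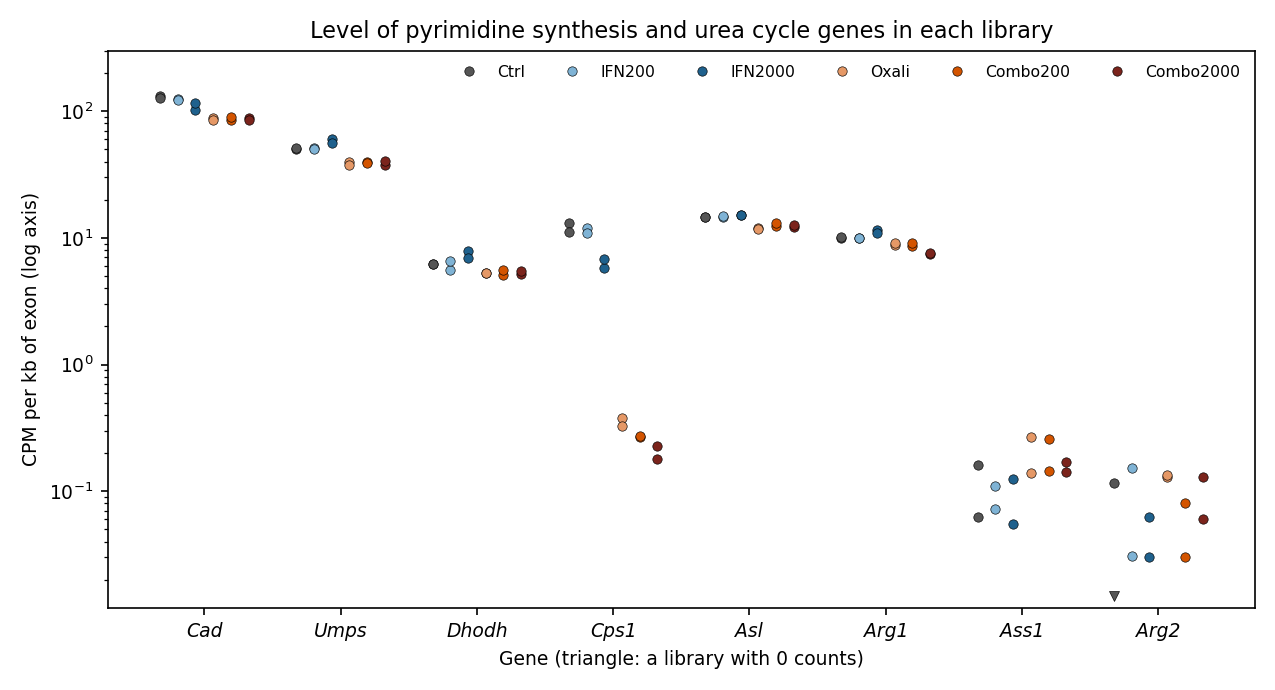
Level of each gene in each library as CPM per kilobase of exon, on a log axis; colors are the 6 groups, 2 points each, and the triangle marks a library with no count. Cad and Umps stand highest. Cps1 is near the level of Asl and Arg1 in Ctrl and IFN200, below both in IFN2000, and near the level of Ass1 and Arg2 in the groups with Oxali. Otc and Nags, with no count in any library, are not drawn.

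Untreated Myc-CaP cells carried the pyrimidine genes and only part of the urea cycle. Per kilobase of exon, Cad had the highest level in Ctrl, at 129 ± 2.98 CPM per kb (SD, n = 2), followed by Umps at 50.8 ± 0.846 CPM per kb. Asl, which splits argininosuccinate, followed at 14.6 ± 0.0842 CPM per kb. Cps1 stood at 13.0 and 11.1 CPM per kb in the Ctrl libraries, an SD of 1.36, and Arg1, the cytosolic arginase, at 10.1 ± 0.143 CPM per kb. The means of Asl, Cps1 and Arg1 followed each other in that order, with both Cps1 libraries between the other two genes. This order depends on the length used. The union of exons is 4831 bases for Asl and 2228 for Arg1, whereas their longest transcripts have 2413 and 1477. For Cps1 both lengths are 5555 bases, so transcript length would raise Asl and Arg1 relative to it. Dhodh was at 6.20 ± 0.0474 CPM per kb. Ass1, which joins citrulline to aspartate and is often silent in cancers, was at 0.112 ± 0.0695 CPM per kb, and Arg2, the mitochondrial arginase, at 0.0584 ± 0.0826 CPM per kb. The last 2 levels overlapped.

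Otc, the mitochondrial enzyme that uses the product of CPS1, and Nags, the source of its activator, had 0 counts in all 12 libraries, which allows at most 0.167 CPM in the shallowest library. Ass1 had 3 to 16 counts per library and Arg2 had 0 to 5. The transcript of Cps1 was thus present, in Ctrl at about the level of Asl and Arg1 per kilobase of the union of exons. Those of its activator's enzyme and its next enzyme were not detectable at this depth. Arg2 shares 285 exonic bases with Vti1b on the opposite strand, a gene with 942 to 1890 counts, and whether counting used strand was not stated, so the few Arg2 counts are uncertain.

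Cps1 was high in every library without Oxali and low in every library with it. Its raw counts without the drug were 1299 and 1215 (Ctrl), 1523 and 1385 (IFN200), and 744 and 840 (IFN2000). With the drug they were 46 and 38 (Oxali), 34 and 39 (Combo200), and 34 and 23 (Combo2000). The lowest library without the drug thus had 744 counts and the highest with it 46.

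In CPM the group means of Cps1 were 66.9 ± 7.56 in Ctrl, 63.7 ± 3.47 in IFN200 and 34.7 ± 3.98 in IFN2000 (SD, n = 2). With Oxali they were 1.97 ± 0.216 alone, 1.50 ± 0.0172 in Combo200 and 1.13 ± 0.190 in Combo2000. Ctrl and IFN200 overlapped; each later group in this order lay below all libraries of the group before it. Among the 13177 genes tested, Cps1 ranked 3938th in Ctrl, at the 70.1 percentile, and was at the 19.5 percentile in Oxali and the 15.1 percentile in Combo2000. Fewer cells with the transcript and less transcript per cell cannot be told apart in bulk RNA.

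**Figure D2:**
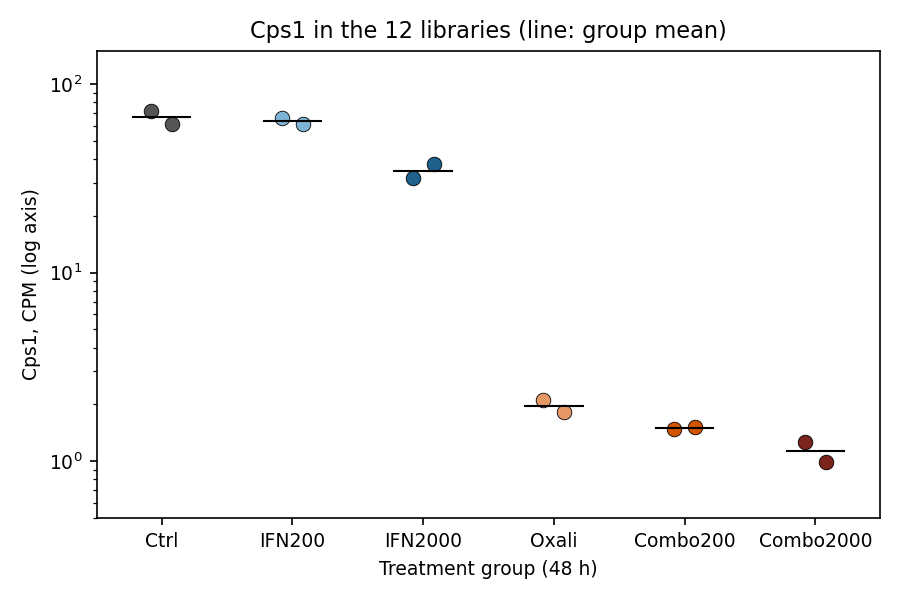
Cps1 in CPM on a log axis for the 12 libraries in 6 treatment groups; each point is a library and each line a group mean. The 6 libraries with Oxali sit between 0.991 and 2.12 CPM and the 6 without it between 31.9 and 72.3 CPM.

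Oxali against Ctrl is the comparison that chose Cps1, so its difference there is given without a test. It was 33.8-fold lower, a log2 fold change of -5.08 (95% interval -5.35 to -4.81). Just outside that choice, leaving aside genes averaging under 1 log2 CPM, the next falls were those of Etv5 (-2.67), Etv4 (-2.49), Rpl22l1 (-2.44), Ly6a (-2.42) and Wfdc12 (-2.38). Against the same Ctrl libraries, Cps1 differed by -5.48 in Combo200 and by -5.87 in Combo2000 (log2), and neither of these groups has conflicting labels.

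Combo200 against IFN200 and Combo2000 against IFN2000 hold none of the 4 libraries of Oxali against Ctrl. Cps1 was chosen with earlier results of these data known, so its p-values below are descriptions and not independent tests. In Combo200 against IFN200 Cps1 fell 42.4-fold, a log2 fold change of -5.41 (SE 0.13, 95% interval -5.68 to -5.13, edgeR adjusted p = 2.14e-17). In Combo2000 against IFN2000 it fell 30.4-fold, a log2 fold change of -4.92 (SE 0.15, edgeR adjusted p = 6.33e-16). Both libraries with Oxali were below both without it in each case. Without the libraries that held T cell and heart muscle markers the values were -5.36 and -5.05.

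IFNγ also went with a lower Cps1 level, at the high dose. In IFN2000 against IFN200, Cps1 fell by 0.88 on the log2 scale (SE 0.08, 95% interval -1.03 to -0.72, edgeR adjusted p = 1.94e-07), and without the libraries holding T cell and heart muscle markers by 0.70 (edgeR adjusted p = 4.91e-05). Of all 13177 genes 22.3% were called in this comparison. The differences from the Ctrl libraries, which had a part in choosing Cps1, were -0.95 in IFN2000 and -0.07 in IFN200. In the presence of Oxali the same dose step, Combo2000 against Combo200, gave a log2 fold change of -0.40 (95% interval -1.04 to 0.25, edgeR adjusted p = 0.767). It did not pass the test, and its interval includes both 0 and the value measured without Oxali. Only 1.37% of genes were called there. The Cps1 counts behind it were 34 and 39 against 34 and 23.

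The genes whose pattern over the 12 libraries was most like that of Cps1 moved far less. Leaving aside genes that averaged under 1 log2 CPM, 10476 were compared, and the highest Pearson correlations of log2 CPM with Cps1 were those of E330009J07Rik, BC005537, Sec14l1 and Fzd4, each 0.998, and Edem1, 0.997. Fzd4, a Wnt receptor, differed from Ctrl by -1.07 in Oxali, and Edem1, which handles misfolded glycoproteins of the endoplasmic reticulum, by -1.13, where Cps1 on the same scale differed by -5.03. All points share the contrast of libraries with and without Oxali, and 2715 genes correlated above 0.9, so the likeness describes that contrast.

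Around Cps1 on chromosome 1, 35 genes are annotated within 1 Mb on either side, Cps1 included, and 7 passed the filter. In Oxali against Ctrl the nearest, Lancl1, fell by 0.15 on the log2 scale (edgeR adjusted p = 0.0133). Acadl, a mitochondrial acyl-CoA dehydrogenase, fell by 0.23 and Rpe by 0.17. Kansl1l rose by 0.29 and Map2, a microtubule protein best known in neurons, by 1.08, while Gm37570 (0.48) did not pass the test. No neighbor that passed the filter had a log2 fold change beyond 1.08 in size.

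The genes of pyrimidine synthesis fell with Oxali, and far less than the Cps1 level differed. Cad was at 1076 and 1041 CPM in Ctrl and 718 and 697 in Oxali. Umps was at 175 and 179 CPM in Ctrl and 138 and 132 in Oxali. Dhodh was at 39.4 and 39.0 CPM in Ctrl and 33.2 and 33.5 in Oxali. None of the 3 pairs of groups overlapped. Umps shares 213 exonic bases with Gm15829 on the opposite strand, which had 0 to 2 counts. Cad fell by 0.58 on the log2 scale (SE 0.05, edgeR adjusted p = 1.18e-09), Umps by 0.39 (SE 0.05, edgeR adjusted p = 2.22e-07) and Dhodh by 0.23 (SE 0.08, edgeR adjusted p = 0.0107).

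Of the urea cycle genes other than Cps1, Asl and Arg1 stood above the lowest counts, and both fell. Asl was at 70.7 and 70.1 CPM in Ctrl and 57.6 and 57.1 in Oxali, and fell by 0.30 on the log2 scale (SE 0.05, edgeR adjusted p = 1.20e-05). Arg1 was at 22.3 and 22.7 CPM in Ctrl and 19.5 and 20.2 in Oxali, and fell by 0.18 (SE 0.07, edgeR adjusted p = 0.0248). The fall of Arg1 did not pass the test with DESeq2 (adjusted p = 0.201) or with upper-quartile scaling (edgeR adjusted p = 0.114). Of the low-count genes, Ass1 went from 7 and 3 counts to 14 and 7, a log2 fold change of 0.88 (SE 0.57, edgeR adjusted p = 0.179) that did not pass.

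In Oxali against Ctrl, 5 of the 6 tested genes other than Cps1 were called lower and none higher, where 32.8% of all genes were called lower and 34.8% higher. Without Ctrl replicate 2 or without Oxali replicate 1 the count of 5 became 3: Arg1 and Dhodh were lost. The Dhodh call was also lost without Ctrl replicate 1.

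The fall with Oxali recurred on the IFNγ backgrounds for the pyrimidine genes, Asl and Arg1. In Combo200 against IFN200, where 33.5% of all genes were called lower and 36.5% higher, the log2 fold changes were -0.50 for Cad (SE 0.05, edgeR adjusted p = 1.07e-08), -0.37 for Umps, -0.21 for Asl, -0.19 for Dhodh and -0.17 for Arg1. All 5 passed the test in edgeR and were lower, and Ass1 (1.15) did not pass. The Dhodh and Arg1 calls were lost with DESeq2 (adjusted p = 0.0963 and 0.194) and with upper-quartile scaling (edgeR adjusted p = 0.0685 and 0.0690). Without IFN200 replicate 2 or without Combo200 replicate 2, 3 genes were called: Dhodh (-0.09 and -0.13) and Arg1 (-0.18 and -0.13) did not pass. Arg1 was also lost without the filter on low counts (-0.17), without IFN200 replicate 1 (-0.18), the library with heart muscle markers, and without both libraries in doubt (-0.18, edgeR adjusted p = 0.0673). Without both, 4 genes were called, and Dhodh was at -0.30.

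In Combo2000 against IFN2000, where 33.8% of all genes were called lower and 38.5% higher, Arg1 fell by 0.59 on the log2 scale (SE 0.06, edgeR adjusted p = 8.71e-08), Umps by 0.57, Dhodh by 0.48, Cad by 0.34 and Asl by 0.29. Arg1 was at 25.7 and 24.5 CPM in IFN2000 and 16.5 and 16.9 in Combo2000. Umps was at 209 and 194 CPM and then at 132 and 140. These 5 calls were kept under all 21 alternatives, including the one without the libraries that held T cell and heart muscle markers. A correction for transcript length and GC content changed the size of the Cad fall: relative to the median of all genes its log2 fold change was -0.69 with the correction and -0.37 without it.

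At 200 pg of IFNγ no difference in these genes was detectable. In IFN200 against Ctrl none of the 6 genes was called, none had an unadjusted p under 0.05 in edgeR, DESeq2 called none, and 0.114% of all genes were called. The 95% intervals were -0.16 to 0.03 for Cad, -0.10 to 0.09 for Umps and -0.08 to 0.10 for Asl (log2), and wider for Dhodh, -0.19 to 0.12, and Arg1, -0.15 to 0.12.

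At 2000 pg, IFNγ moved Cad and the later pyrimidine genes in opposite directions. In IFN2000 against Ctrl, Cad fell by 0.24 on the log2 scale (SE 0.05, edgeR adjusted p = 0.00156), from 1076 and 1041 CPM to 838 and 955. Umps rose by 0.19 (SE 0.04, edgeR adjusted p = 0.00726) and Dhodh by 0.26 (SE 0.07, edgeR adjusted p = 0.0180). Dhodh reached 50.2 and 43.6 CPM, above both Ctrl libraries. Asl (0.05) and Arg1 (0.16) did not pass the test. Of all genes 8.47% were called lower and 8.39% higher, against 1 and 2 of these 6.

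These 3 changes rested in part on single libraries. Without IFN2000 replicate 2, the library with T cell markers, 1 gene was called: the values of Umps and Dhodh were 0.14 and 0.16, which did not pass, and without both libraries in doubt Cad fell by 0.14 (edgeR adjusted p = 0.0404) while Umps (0.14) and Dhodh (0.16) did not pass. Without Ctrl replicate 1 none of the 6 was called, and Dhodh was also lost without Ctrl replicate 2 (0.26, edgeR adjusted p = 0.105). The log2 ratio to Ctrl also correlated with transcript length across genes, by a Spearman rho of -0.34 in IFN2000 replicate 2 and -0.18 in replicate 3 against -0.01 to 0.15 in the other 10 libraries, and Cad, with 8183 exonic bases, is the longest of the genes. With the correction for length and GC content the fall of Cad in IFN2000 against Ctrl was 0.10 (edgeR adjusted p = 0.0471). In IFN2000 against IFN200, where 22.3% of all genes were called, the same 3 genes were called, Cad at -0.17, Umps at 0.19 and Dhodh at 0.29. With the replicate block Dhodh did not pass (0.26, edgeR adjusted p = 0.0536). There Cad did not pass with that correction (-0.02, edgeR adjusted p = 0.770), and none of the 6 was called without IFN2000 replicate 2 or without both libraries in doubt (-0.06, 0.16 and 0.09 for Cad, Umps and Dhodh). Without IFN200 replicate 1 only Umps was called.

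With Oxali present, IFNγ left Cad, Umps, Dhodh and Asl close to their level with Oxali alone. In Combo2000 against Oxali their log2 fold changes lay between -0.00 and 0.06, with 95% intervals no wider than -0.14 to 0.17. Arg1 was the 1 gene of the 6 called there, lower by 0.25 on the log2 scale (SE 0.07, edgeR adjusted p = 0.0382), where 4.36% of all genes were called. It was at 19.5 and 20.2 CPM in Oxali and at 16.5 and 16.9 in Combo2000, and the groups did not overlap. DESeq2 did not call it (adjusted p = 0.461), nor did edgeR without Oxali replicate 1 or 2, Combo2000 replicate 2 or 3, Ctrl replicate 2 or Combo200 replicate 2, each left out alone.

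In Combo200 against Oxali, with 1.83% of all genes called, and in Combo2000 against Combo200, none of the 6 genes was called by edgeR or DESeq2. At an unadjusted p under 0.05, 1 gene passed in each: Asl (0.10) in the former and Arg1 (-0.25) in the latter. The differences of Cps1 from the Oxali libraries that chose it were -0.39 in Combo200 and -0.79 in Combo2000 (log2).

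**Figure D3:**
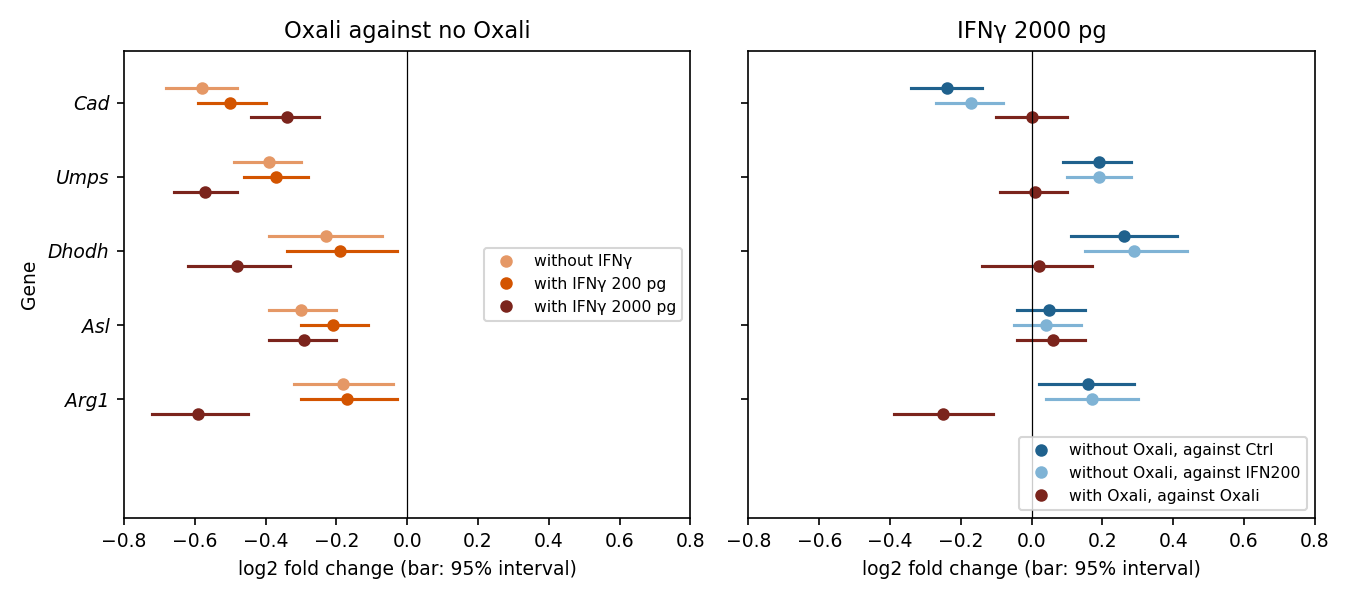
Log2 fold change with its 95% interval for 5 genes, for Oxali against no Oxali on 3 backgrounds (left) and for IFNγ at 2000 pg without and with Oxali (right). On the left all 15 intervals lie below 0; on the right Cad lies below 0 and Umps and Dhodh above 0 without Oxali, and Arg1 lies on opposite sides of 0 without and with Oxali.

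An interaction tested whether IFNγ acted differently on the Oxali background, the change with IFNγ under Oxali minus the change without it. At 2000 pg, where 2.72% of all genes were called, Arg1 had an interaction of -0.41 on the log2 scale (SE 0.09, edgeR adjusted p = 0.0212). Its mean CPM went from 22.5 ± 0.318 (Ctrl) to 25.1 ± 0.842 (IFN2000) without the drug and from 19.9 ± 0.528 (Oxali) to 16.7 ± 0.291 (Combo2000) with it (SD, n = 2). DESeq2 did not call this interaction (adjusted p = 0.144), nor did edgeR without both libraries in doubt (-0.39, edgeR adjusted p = 0.0871). The interactions of Cad (0.24), Umps (-0.18) and Dhodh (-0.24) did not pass in edgeR. That of Cad passed with DESeq2 (0.23, adjusted p = 0.0399) and without the filter on low counts (0.25, edgeR adjusted p = 1.67e-05), and that of Umps with the length and GC correction (-0.21, edgeR adjusted p = 0.0222). All 3 passed without IFN2000 replicate 3 (0.32, -0.25 and -0.36). At 200 pg, where 0.698% of all genes were called, none of the 6 passed in edgeR, also not at an unadjusted p under 0.05, and DESeq2 called none. For Cps1, whose choice used 4 of the 8 libraries, the values were -0.33 at 200 pg and 0.16 at 2000 pg.

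The upstream sequence of the 2 pyrimidine genes with the largest falls is shown to give the context of Cad and Umps, 250 bases up to the start of transcription from RefSeq on GRCm38.p6, with matches to GGGCGG (the GC box) or TATAAA (the TATA box) on either strand in capitals. RefSeq promoters were found for 5 of the 10 genes. Cad is at chr5:31054530-31054779 on the plus strand and Umps at chr16:33967039-33967288 on the minus strand.
Cad: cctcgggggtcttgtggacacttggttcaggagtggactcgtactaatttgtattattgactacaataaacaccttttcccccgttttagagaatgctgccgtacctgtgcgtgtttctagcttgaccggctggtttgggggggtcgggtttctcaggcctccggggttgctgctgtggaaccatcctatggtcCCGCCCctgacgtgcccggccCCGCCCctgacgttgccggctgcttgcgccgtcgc
Umps: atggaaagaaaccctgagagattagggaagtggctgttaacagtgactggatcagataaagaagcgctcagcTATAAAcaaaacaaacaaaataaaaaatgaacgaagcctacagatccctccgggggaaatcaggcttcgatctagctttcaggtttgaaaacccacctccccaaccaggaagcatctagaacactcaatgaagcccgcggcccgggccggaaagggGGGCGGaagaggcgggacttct
Cad had 2 GC boxes in this window and Umps had 1 GC box and 1 TATA box. Of 32851 promoters of 300 bases in the table, 35.7% held GGGCGG and 13.6% held TATAAA. The E-box CACGTG, a sequence that MYC binds, was in 7.15% of promoters and in neither of these. Sequence outside the 300 bases was not searched. Of the other members with a promoter, only Ass1 held this E-box, at -36. A match is a description of letters, not of a bound site.

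Around these members, 5 further lists were read: arginine, proline and polyamine metabolism (25 of 32 genes tested), ammonia and glutamine handling (21 of 21), pyrimidine interconversion, salvage and thymidylate (32 of 37), purine synthesis (20 of 21) and liver transcription factors (9 of 20). In Oxali against Ctrl the medians of the log2 fold change were -0.26, -0.24, -0.10, -0.36 and 0.15 in that order, where the median of all genes was 0.02.

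In the arginine list, 16 of 25 tested genes were called lower with Oxali, 5 higher and 4 not, beside the 32.8% and 34.8% of all genes given above. Aldh18a1, which starts proline and ornithine synthesis from glutamate, was at 191 and 186 CPM in Ctrl and 71.0 and 69.5 in Oxali, a fall of 1.42 on the log2 scale (SE 0.04, edgeR adjusted p = 8.34e-16). Pycr1, which completes proline, fell by 1.34 and Amd1, which supplies the aminopropyl group of polyamines, by 1.02. Ddah2, which breaks down methylated arginine, was at 1.17 and 0.912 CPM in Ctrl and 5.62 and 6.44 in Oxali and rose by 2.54 (SE 0.21, edgeR adjusted p = 2.04e-09). Azin2 rose by 1.14 and Gamt, the last enzyme of creatine synthesis, by 0.71. Steps toward proline and polyamines are thus among the falls.

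In the ammonia and glutamine list, 14 of 21 genes were called lower, 1 higher and 6 not, beside 32.8% and 34.8% of all genes. Psat1, the aminotransferase of serine synthesis, was at 1005 and 976 CPM in Ctrl and 377 and 349 in Oxali and fell by 1.45 on the log2 scale (SE 0.04, edgeR adjusted p = 2.68e-16). Asns, which makes asparagine from glutamine, fell by 1.31 and Slc7a5, a carrier of large neutral amino acids, by 0.93. The 1 gene called higher was Car5b, a mitochondrial carbonic anhydrase, by 0.66. These 3 falls exceeded the 0.58 of Cad, a difference between genes that was not tested.

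Of the 32 pyrimidine interconversion genes, 14 were called lower, 11 higher and 7 not, where 32.8% of all genes were called lower and 34.8% higher. Shmt2, Mthfd2 and Mthfd1, which supply one-carbon units to thymidylate and purines, fell by 1.20, 0.83 and 0.81 on the log2 scale. Samhd1, which degrades deoxynucleotides, was at 438 and 405 CPM in Ctrl and 1070 and 1071 in Oxali and rose by 1.34 (SE 0.04, edgeR adjusted p = 3.75e-16). Rrm2b, the ribonucleotide reductase subunit induced by p53, rose by 0.84 and Tk2, the mitochondrial thymidine kinase, by 0.63. With the correction for length and GC content 6 of these genes were called higher and 17 lower, and DESeq2 called 7 higher and 13 lower.

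Of the 20 purine genes, 15 were called lower, 2 higher and 3 not, beside 32.8% lower and 34.8% higher among all genes. Impdh1, which commits inosine monophosphate to guanine nucleotides, fell by 1.36 on the log2 scale, and Hprt, the salvage enzyme, by 0.62. Adssl1, the muscle form of adenylosuccinate synthase, rose by 1.59 and Adss, the other form, by 0.43. The arginine, ammonia and purine lists kept more genes called lower than higher under RLE and upper-quartile scaling, DESeq2 and the length and GC correction.

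Of the liver transcription factors, 11 of 20 did not pass the filter, among them Onecut1, with 0 counts. Of the 9 tested, 4 were called lower, 3 higher and 2 not, where 32.8% of all genes were called lower and 34.8% higher. Foxa3, among those called higher, passed the filter on low counts only through the groups with Oxali. Hnf4a, a defining hepatocyte factor, was at 2.07 ± 0.137 CPM in Ctrl and 0.795 ± 0.113 in Oxali (SD, n = 2) and fell by 1.37 on the log2 scale (SE 0.32, edgeR adjusted p = 0.000762). Cebpa fell by 1.19, from 175 ± 3.03 to 77.1 ± 4.84 CPM, and Foxa1, a factor that opens chromatin, by 1.06. Ppargc1a, a coactivator of mitochondrial and fasting genes, rose by 1.80, from 54.3 ± 3.50 to 189 ± 7.69 CPM, and Cebpb by 0.80. Hnf4a, Cebpa, Foxa1, Ppargc1a and Cebpb were each also called in the same direction in Combo200 against IFN200. The list's median was 0.15, and with the length and GC correction it was -0.12, at the median of all genes of -0.13.

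**Figure D4:**
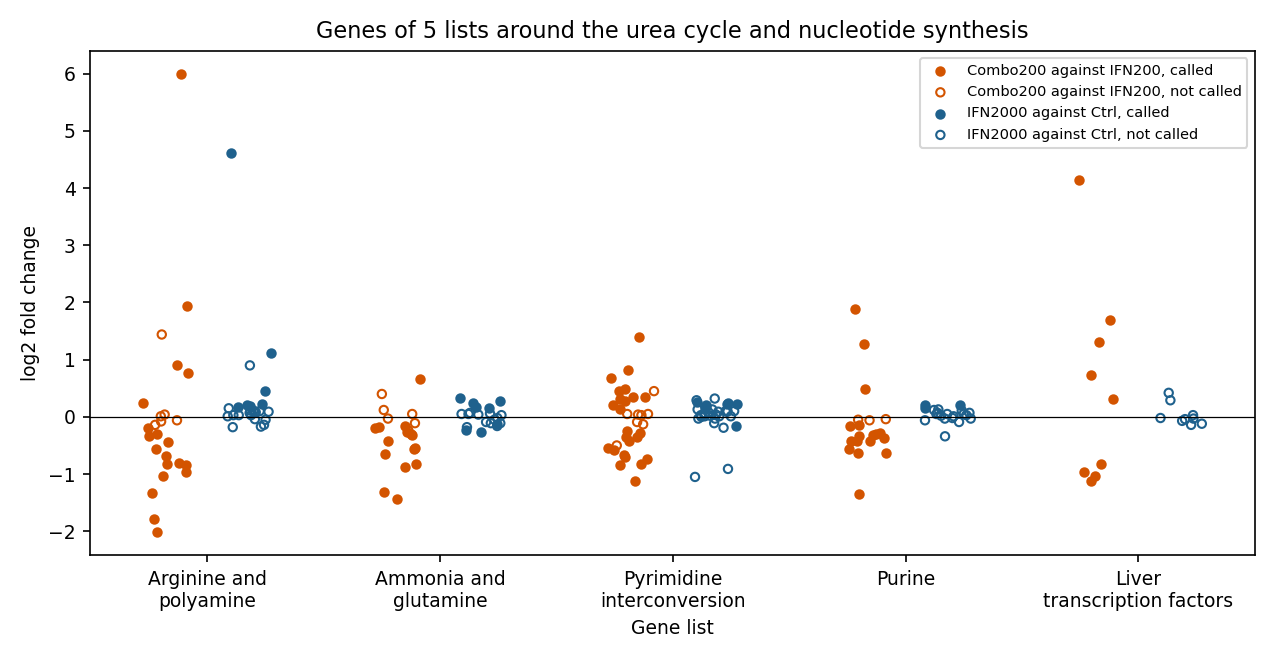
Log2 fold change of each tested gene of 5 lists in Combo200 against IFN200 (orange) and in IFN2000 against Ctrl (blue), which share no library; filled points were called at an adjusted p under 0.05. With Oxali most called genes of the arginine, ammonia and purine lists lie below 0, and with IFNγ most called genes lie just above 0.

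With IFNγ at 2000 pg fewer genes were called than with Oxali, in these lists and among all genes, of which 8.47% were called lower and 8.39% higher. In IFN2000 against Ctrl the arginine list had 7 genes higher and none lower, the ammonia list 5 and 3, the pyrimidine interconversion list 7 and 1, the purine list 3 and none and the liver factors none in either direction (1 higher with the length and GC correction). Without the libraries holding T cell and heart muscle markers the arginine list had 4 higher, the pyrimidine list 3 higher and the purine list 1. Pycr1 rose by 0.46 on the log2 scale (SE 0.09, edgeR adjusted p = 0.00124), Asns by 0.33, Gpt2, an alanine aminotransferase, by 0.28, Mthfd2 by 0.26 and Odc1, which starts polyamine synthesis, by 0.22. Glul, glutamine synthetase, fell by 0.26 and Samhd1 by 0.16. The interaction at 2000 pg was called for Pycr1 (-0.72), Asns (-0.33), Mthfd2 (-0.29) and Samhd1 (0.37). These genes were named for large changes in Oxali or IFN2000 against Ctrl. The interaction reuses those libraries, so its values are a description and not an independent test.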

How the data were processed

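Raw read counts per gene symbol were deposited by the authors for 12 RNA-seq libraries of poly(A) RNA, made with a stranded kit. Per the study's methods, reads were aligned to GRCm38 with STAR and counted with featureCounts on GENCODE genes, whereas the submitters' processing notes list STAR 2.7.3a and RSEM 1.3.0. Whether strand was used in counting was not given in the sources used here. The table holds 55216 genes, 28300 without a count. All values were whole and every row named a gene.

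Counts were filtered with filterByExpr (minimum count 10, minimum total 15), scaled by TMM and fitted in edgeR 4.0.16 (R 4.3.3) with its quasi-likelihood test. One model held all 12 libraries, with 6 group means and no other term. P-values were adjusted by Benjamini-Hochberg over 13177 genes in each comparison, and genes were called below 0.05. The smallest two-sided p of an exact permutation test of 2 libraries against 2 is 0.333, so calls rest on spread shared across genes. Partner libraries were not copies of each other: their chi-square per degree of freedom ran from 1.65 to 8.39.

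The 10 members, the gene lists and the tests were chosen with earlier results of these data known. Named list genes were the 3 largest called rises and falls per list in Oxali or IFN2000 against Ctrl, leaving aside genes averaging under 0 log2 CPM. Alternatives were RLE and upper-quartile scaling, DESeq2 1.42.0, no filter, a mean of at least 50 counts, only the groups compared, the replicate number as a block, a correction for transcript length and GC content, and each library left out. The 2 libraries with T cell or heart muscle reads were left out together as an alternative chosen after seeing the data. The scripts were tested on simulated counts. Gene models came from a later GENCODE release on GRCm38, in which 53559 symbols were found, and CPM per kb used the union of a gene's exons.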

Additional observations from a re-analysis of the deposited data

Results flagged for a closer look

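For Arg1, the cytosolic arginase that ends the urea cycle, the effect of IFNγ at 2000 pg differed with Oxali present, by a test of the difference itself. The interaction was -0.41 on the log2 scale (95% interval -0.61 to -0.21, edgeR adjusted p = 0.0212). Without Oxali, Arg1 was at 22.3 and 22.7 CPM in Ctrl and 25.7 and 24.5 in IFN2000. With Oxali it was at 19.5 and 20.2 CPM in Oxali and 16.5 and 16.9 in Combo2000, so both libraries of each IFNγ group lay outside those of its comparison group, above without Oxali and below with it. The value ran from -0.46 to -0.38 over 21 alternatives and passed the threshold in 14. It did not pass with DESeq2, without Ctrl replicate 1 or 2, IFN2000 replicate 2, Oxali replicate 2 or Combo2000 replicate 2, each left out alone, or without both libraries holding T cell or heart muscle reads (edgeR adjusted p = 0.0871).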

How the results depend on the processing

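Of 336 recomputed values of 16 main results, 302 were kept and 34 moved. A count of members called was kept if it was equal or within 1.5 times, and a count has no direction to reverse. The Cps1 values kept their direction and their side of the threshold. The log2 fold change of Cps1 in Combo200 against IFN200 ran from -5.53 to -5.36, in IFN2000 against IFN200 from -0.98 to -0.70 and in Combo2000 against Combo200 from -0.59 to -0.25, with no change of call. The counts of other members called changed as follows, and the cause was not tested. With 1 library left out the count of 5 in Oxali against Ctrl ran from 3 to 5, as did those in Combo200 against IFN200 and Combo200 against Ctrl. The 3 in IFN2000 against Ctrl ran from 0 to 3, the 3 in IFN2000 against IFN200 from 0 to 4, the 1 in Combo2000 against Oxali from 0 to 1 and the 1 in the interaction at 2000 pg from 0 to 4. In Combo200 against IFN200, 3 were called with upper-quartile scaling and 3 with DESeq2. In Combo2000 against Oxali, 0 were called with DESeq2, 0 without the filter, 0 with only the groups compared and 0 with the replicate block. In Combo2000 against Combo200, 1 was called with the length and GC correction. In the interaction at 2000 pg, 2 were called without the filter and 2 with the length and GC correction. Without both libraries holding T cell or heart muscle reads, 1 was called in IFN2000 against Ctrl, 0 in IFN2000 against IFN200 and 0 in the interaction at 2000 pg.

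The replicate numbers showed no pairing where it was checked: deviations of same-numbered libraries correlated by -0.05 to 0.02 over the 6 pairs of groups that share both numbers. The other pairs of groups, such as Combo200 and IFN200, could not be checked in this way. With the replicate block 5 members were called in Oxali against Ctrl and 2 in IFN2000 against Ctrl, where Dhodh did not pass (0.23, edgeR adjusted p = 0.114). For single members, 1047 of the values with 1 library left out and 759 of those under other settings kept their call, 40 and 28 lost it and 5 and 6 gained it. With the length and GC correction the median of all genes in Oxali against Ctrl was -0.13, and relative to it Cad differed by -0.83, against -0.60 without the correction. RLE and upper-quartile scaling moved mean CPM levels of members by -1.85% to 2.22%, which exceeded 1 SD in 10 of 84 cases. Ass1 and Arg2, with at most 16 and 5 counts, were too low for a difference to be seen at this depth.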

Other observations

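The genes in these paragraphs were named after their values were seen. Tat, tyrosine aminotransferase, was 1 of 2 hepatocyte markers that passed the filter, with these counts per group: 17 and 25 (Ctrl), 28 and 27 (IFN200), 7 and 9 (IFN2000), 5 and 9 (Oxali), 2 and 6 (Combo200), 4 and 5 (Combo2000). Tat passed the filter on low counts only through Ctrl and IFN200, so its falls from those groups are descriptions and not tests. It was lower by 1.74 on the log2 scale in Oxali against Ctrl, by 2.84 in Combo200 against IFN200 and by 1.77 in IFN2000 against IFN200. In Combo2000 against IFN2000 its value of -0.94 did not pass (edgeR adjusted p = 0.136). The other hepatocyte marker that passed the filter, Fgb, a fibrinogen chain, had 19 and 23 counts in Ctrl, 24 and 23 in Oxali and 35 and 28 in Combo2000. Below the filter, Apoh had 4 and 2 counts untreated against 7 and 8 with Oxali, and Ttr 3 and 2 against 5 and 6, so Tat does not stand for the list.

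Nos2, the inducible nitric oxide synthase, which turns arginine into nitric oxide and citrulline, had no count in Ctrl or IFN200. With IFNγ at 2000 pg alone it had 4 and 2 counts and with Oxali alone 1 and 2, whereas Combo200 held 8 and 9 and Combo2000 held 51 and 44. It passed the filter on low counts only through Combo2000, so its differences from other groups are descriptions and not tests. In Combo2000 against Combo200 it was higher by 2.42 on the log2 scale, and in Combo2000 against IFN2000 by 3.80. The groups with both agents were thus above every other group. The interaction of Nos2 at 2000 pg, 0.02 on the log2 scale, was not called, and without a count in Ctrl it is poorly estimated.

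Xdh, xanthine dehydrogenase, which ends purine breakdown in urate, was at 4.17 and 4.26 CPM untreated, 3.30 and 3.35 with IFNγ at 2000 pg and 5.85 and 4.10 with Oxali. The combinations reached 11.5 and 10.6 CPM at 200 pg and 18.0 and 20.4 at 2000 pg. Its interaction was 1.03 at 200 pg (edgeR adjusted p = 0.0284) and 2.28 at 2000 pg (edgeR adjusted p = 2.53e-06) on the log2 scale.

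Foxa3, a liver and gut forkhead factor, had 1 to 3 counts in each library without Oxali and 19 to 35 in each library with it. It passed the filter on low counts only through the groups with Oxali, so its difference is a description and not a test. That difference was 4.14 on the log2 scale in Combo200 against IFN200. Hnf4a, another liver factor, fell in the same comparison by 1.13 (SE 0.30, edgeR adjusted p = 0.00227).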
